A study of Homo sapiens with 14 samples.

Results

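The MAP kinase phosphatases are the dual-specificity phosphatases that switch off MAP kinases, and 10 of their genes were followed here through nascent transcription: DUSP1, DUSP3, DUSP4, DUSP5, DUSP6, DUSP7, DUSP8, DUSP10, DUSP14 and DUSP16. They were chosen by name, with earlier results of these data known, and are 10 of the 58780 genes of the count table. All 10 had enough reads to be tested. The study used A549, an established line from a human lung adenocarcinoma, and PRO-seq, in which engaged RNA polymerases extend their transcripts with labelled nucleotides in permeabilized cells, so that the reads come from RNA being made. GSK591 inhibits PRMT5, which places symmetric dimethyl marks on arginine, and MS023 blocks type I arginine methyltransferases, which place asymmetric ones. Dexamethasone (Dex) is a synthetic glucocorticoid.

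There were 7 groups of 2 libraries. All of them, the untreated cells included, were held in 0.01% DMSO. The untreated cells carry the 15 min label. Other groups received 1 µM GSK591 or 1 µM MS023 for 15 min, 1 µM of either inhibitor with 100 nM Dex for 15 min, or 1 µM of either inhibitor for 3 h. No group with Dex alone and no 3 h control is analysed here. An effect of Dex is therefore always one measured beside an inhibitor. A change at 3 h cannot be told apart from 3 h in culture. The labels number the libraries of a group without saying whether they came from separate cultures, so the p-values measure the spread between these libraries, which may be technical.

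MAP kinases are active when a threonine and a tyrosine in their activation loop both carry phosphate, and a dual-specificity phosphatase removes both. Several of these genes are themselves induced by MAP kinase signalling, which makes them negative feedback regulators, and DUSP1 is a classical glucocorticoid target through which glucocorticoids dampen inflammatory MAP kinase signalling in airway epithelium. The family is usually sorted by where the protein acts and on which kinase. DUSP1, DUSP4 and DUSP5 are nuclear enzymes with inducible genes. DUSP5 is selective for ERK, while DUSP1 also acts on JNK and p38. DUSP6 and DUSP7 are cytoplasmic and ERK-selective. DUSP8, DUSP10 and DUSP16 act mainly on the stress kinases JNK and p38. DUSP3 and DUSP14 are small atypical enzymes without the kinase-binding domain of the others.

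The members that rose with Dex beside MS023 were DUSP1, DUSP4, DUSP5 and DUSP6, and promoter sequence was looked up for what they share. RefSeq windows on GRCh38.p14 ran from 250 bases before a start site to 50 after it. They were searched for 8 of the 10 members, which gave 9 windows because DUSP10 has 2. DUSP4 and DUSP5 are named only. No window was found for DUSP5, and DUSP4 was left out of the search by choice. Of the members that rose, only DUSP1 and DUSP6 were thus searched, and a motif shared by all of them was not tested. The search covered both strands for the cAMP response element (CRE, TGACGTCA), its core (TGACG, which lies within the full element), the glucocorticoid response element (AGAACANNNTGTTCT) and its single arm (AGAACA), AP-1 (TGANTCA), an ETS site (CCGGAAG), the E-box (CACGTG), the CCAAT box (CCAAT), the TATA box (TATAAA) and the serum response CArG box. The full CRE was in 2 of the 9 windows, those of DUSP1 and DUSP8, against 1.84% of 34943 RefSeq windows of the same length. These stretches of 250 bases before the start are shown because both carry the element. DUSP1 rose with Dex and DUSP8 did not pass the test, and a part of the element in this was not tested. Capitals mark the CRE, CRE cores, the E-box, the TATA box and the CCAAT box. The DUSP1 stretch is chr5:172771196-172771445 and the DUSP8 stretch is chr11:1572272-1572521, each on the minus strand and written 5′ to 3′.
DUSP1: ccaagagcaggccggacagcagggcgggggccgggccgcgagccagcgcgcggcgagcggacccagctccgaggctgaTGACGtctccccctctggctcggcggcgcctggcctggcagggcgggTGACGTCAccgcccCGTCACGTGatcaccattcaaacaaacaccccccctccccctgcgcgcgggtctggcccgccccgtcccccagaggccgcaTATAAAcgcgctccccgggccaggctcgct
DUSP8: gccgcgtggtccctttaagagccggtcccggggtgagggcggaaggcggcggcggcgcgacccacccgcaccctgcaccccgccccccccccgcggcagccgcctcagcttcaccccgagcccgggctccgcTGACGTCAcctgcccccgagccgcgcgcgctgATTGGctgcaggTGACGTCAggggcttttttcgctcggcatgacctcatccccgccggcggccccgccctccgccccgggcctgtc

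In DUSP1 the CRE starts 125 bases before the start site, and an E-box follows at 108 bases before it. The TATA box of DUSP1 starts 30 bases before the start site, and 11.6% of all windows hold one. DUSP8 has 2 full CREs, at 118 and 74 bases before its start, with a CCAAT box between them and no TATA box. The window of DUSP6, which also rose with Dex beside MS023, had a CCAAT box at 46 bases before the start and none of the other motifs. CCAAT boxes were in 4 of the 9 windows and in 34.6% of all windows. E-boxes were in 7.23% of all windows and in 1 of the 9. The glucocorticoid response element, its single arm, AP-1, ETS and CArG motifs had no match in the 9 windows, and their shares of all windows were 0.00286%, 14.8%, 7.72%, 10.2% and 1.3%. The CRE core was in 4 of the 9 windows and in 24.5% of all. A match describes the letters and no match says only that they are not in that window.

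On GRCh38, with GENCODE 29 coordinates, DUSP1 (ENSG00000120129.5) lies at chr5:172768090-172771195, DUSP4 (ENSG00000120875.8) at chr8:29333064-29350668 and DUSP5 (ENSG00000138166.5) at chr10:110497838-110511544. The ERK-selective pair are DUSP6 (ENSG00000139318.7) at chr12:89347232-89353271 and DUSP7 (ENSG00000164086.9) at chr3:52048919-52056550. Of the stress kinase phosphatases, DUSP8 (ENSG00000184545.10) lies at chr11:1554044-1571920, DUSP10 (ENSG00000143507.17) at chr1:221701424-221742176 and DUSP16 (ENSG00000111266.8) at chr12:12474210-12562383. The atypical genes DUSP3 (ENSG00000108861.8) and DUSP14 (ENSG00000276023.4) lie at chr17:43766121-43778988 and chr17:37489831-37513501. DUSP5 and DUSP14 are on the plus strand and the other members on the minus strand. DUSP6 is the only member whose exons overlap those of another gene: 1875 bases are shared with AC024909.2 on the opposite strand. The strand setting of the counting is not given in the sources used here, so reads of DUSP6 and of that antisense gene cannot be told apart.

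Total counts per library ranged from 5768312 to 9606938, of which mitochondrial transcripts took 39.8% to 58%. Both extremes of that share were in 15 min groups, an MS023 library and a GSK591 with Dex library. The counts of single members spanned a wide range of depth. DUSP4 had 2074 to 3777 reads per library and DUSP1 had 1441 to 4558, while DUSP6 had 39 to 101 and DUSP10 had 9 to 32. The spread at DUSP6, DUSP8 and DUSP10 is therefore wide. All 5 epithelial markers (EPCAM, KRT7, KRT8, KRT18 and CDH1) were in the fit, with a summed level of 800 to 1.09e+03 CPM, which are counts scaled to library size. Most of that sum came from the keratin genes KRT7, KRT8 and KRT18. EPCAM and CDH1 were low, with group means of 1.7 to 3.7 and 1.66 to 3.04 CPM. The 6 markers of leukocytes, endothelium and fibroblasts summed to 4.95 to 8.3 CPM, and CD3E was at 0 in every library. Most of this second sum came from the fibroblast marker COL1A1, whose group means of 6.15 to 7.85 CPM lay above those of EPCAM and CDH1.

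Per kilobase of exon, DUSP1 was the most transcribed member in untreated cells, at 127 ± 2.3 RPKM (SD, n = 2). RPKM here is CPM per kilobase of exon, with library sizes scaled by TMM. DUSP4 followed at 48.7 ± 0.48 RPKM and DUSP5 at 19.5 ± 0.39 RPKM. On this scale the nuclear, inducible enzymes held the highest levels. The counting feature is not given in the sources used here, so the ranking depends on the scaling by exon length. In mean CPM of untreated cells, which are not scaled by length, DUSP4 (353) stood above DUSP1 (256) and DUSP3 (66.7) above DUSP5 (50.9). DUSP3 stood at 13.3 ± 0.99 RPKM and DUSP14 at 5.79 ± 0.45 RPKM. The stress kinase phosphatase DUSP16 had 2.75 ± 0.54 RPKM. DUSP7 (2.07 ± 0.12 RPKM) and DUSP8 (1.94 ± 0.11 RPKM) came next and their libraries overlapped, so their order is not resolved. DUSP6 had 1.55 ± 0.08 RPKM and DUSP10 the lowest level, 0.966 ± 0.3 RPKM. These are levels per gene, not differences between groups, and in no other pair of neighbours in this order did the untreated libraries overlap.

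**Figure D1:**
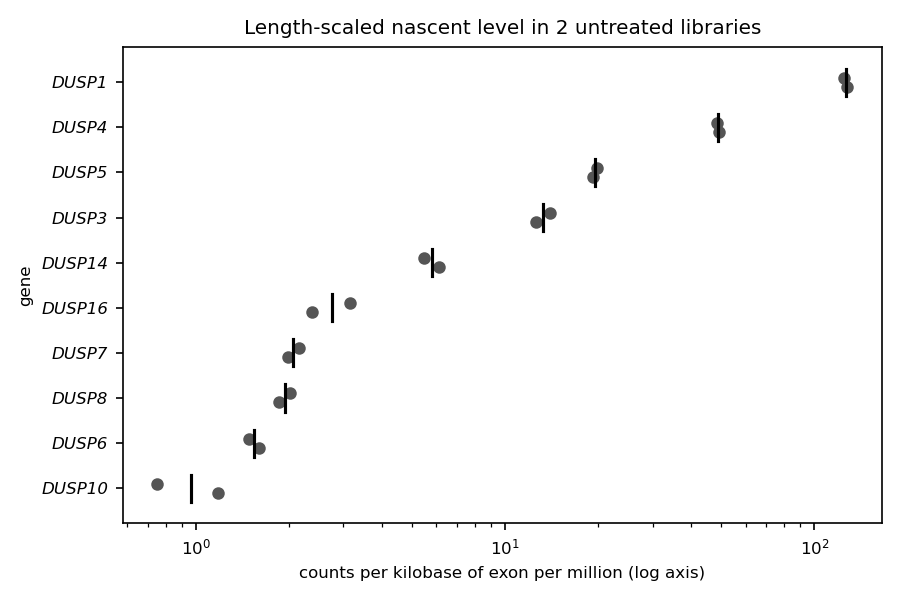
RPKM of the 10 DUSP genes in untreated cells on a log axis, 1 point per library and a vertical line at the mean of 2 libraries. The levels run from 0.966 RPKM for DUSP10 to 127 RPKM for DUSP1, and the libraries of DUSP7 and DUSP8 overlap.

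Differences between groups were tested with edgeR's quasi-likelihood test over 21910 genes, with Benjamini-Hochberg adjustment within each comparison, and a gene was called at an adjusted p under 0.05. Log2 fold changes are given ± SE. Levels are CPM on TMM-scaled library sizes, so all changes are relative to the bulk of genes. In a bulk measurement a change in the share of cells that transcribe a gene and a change in the transcription per cell cannot be told apart.

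The first question is whether either inhibitor alone moved these genes within 15 min. None of the 10 passed the test in either comparison: edgeR called 0, none had an unadjusted p under 0.05, and DESeq2 also called 0. Of all genes, 6.85% with GSK591 and 8.08% with MS023 had an unadjusted p under 0.05 by edgeR. Over all genes, 0.306% were called with GSK591 and 0.183% with MS023, which is 67 and 40 genes. These counts moved with single libraries, to 4 without GSK591 15 min replicate 1 and to 2 without untreated replicate 2. DUSP5 had 58.4 and 59.4 CPM with GSK591 against 50.2 and 51.7 CPM in untreated cells, a log2 fold change of 0.21 ± 0.11 (95% interval -0.00 to 0.42, adjusted p = 0.74). Both GSK591 libraries lay above both untreated ones, which held for no other member. For DUSP4 (326 and 332 against 356 and 351 CPM, -0.10 ± 0.10), DUSP8 (7.3 and 8.58 against 8.6 and 9.31 CPM, -0.17 ± 0.21) and DUSP10 (1.65 and 2.03 against 3.44 and 2.19 CPM, -0.61 ± 0.36) both lay below (adjusted p = 0.96, 0.97 and 0.84). With MS023, DUSP6 had 5.19 and 5.85 CPM against 7.42 and 6.9 CPM, a log2 fold change of -0.38 ± 0.22 (interval -0.83 to 0.06, adjusted p = 0.69). DUSP1 had 244 and 216 CPM with MS023 against 259 and 252 CPM in untreated cells. For both genes the MS023 libraries lay below the untreated ones, as they did for DUSP4 and DUSP14, and those of DUSP7 lay above. With 2 libraries per group such a separation often arises without a difference. The share of all genes that separated was not counted, so here and below it only describes the libraries. The median log2 fold change of the 10 members was -0.02 with GSK591 and -0.16 with MS023, beside 0.02 and -0.00 over all genes tested. Of the genes around the phosphatases in the pathway, described further on, MAP3K1, a kinase upstream of JNK, was called with GSK591 (1.02 ± 0.21, adjusted p = 0.016) and none was called with MS023.

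**Figure D2:**
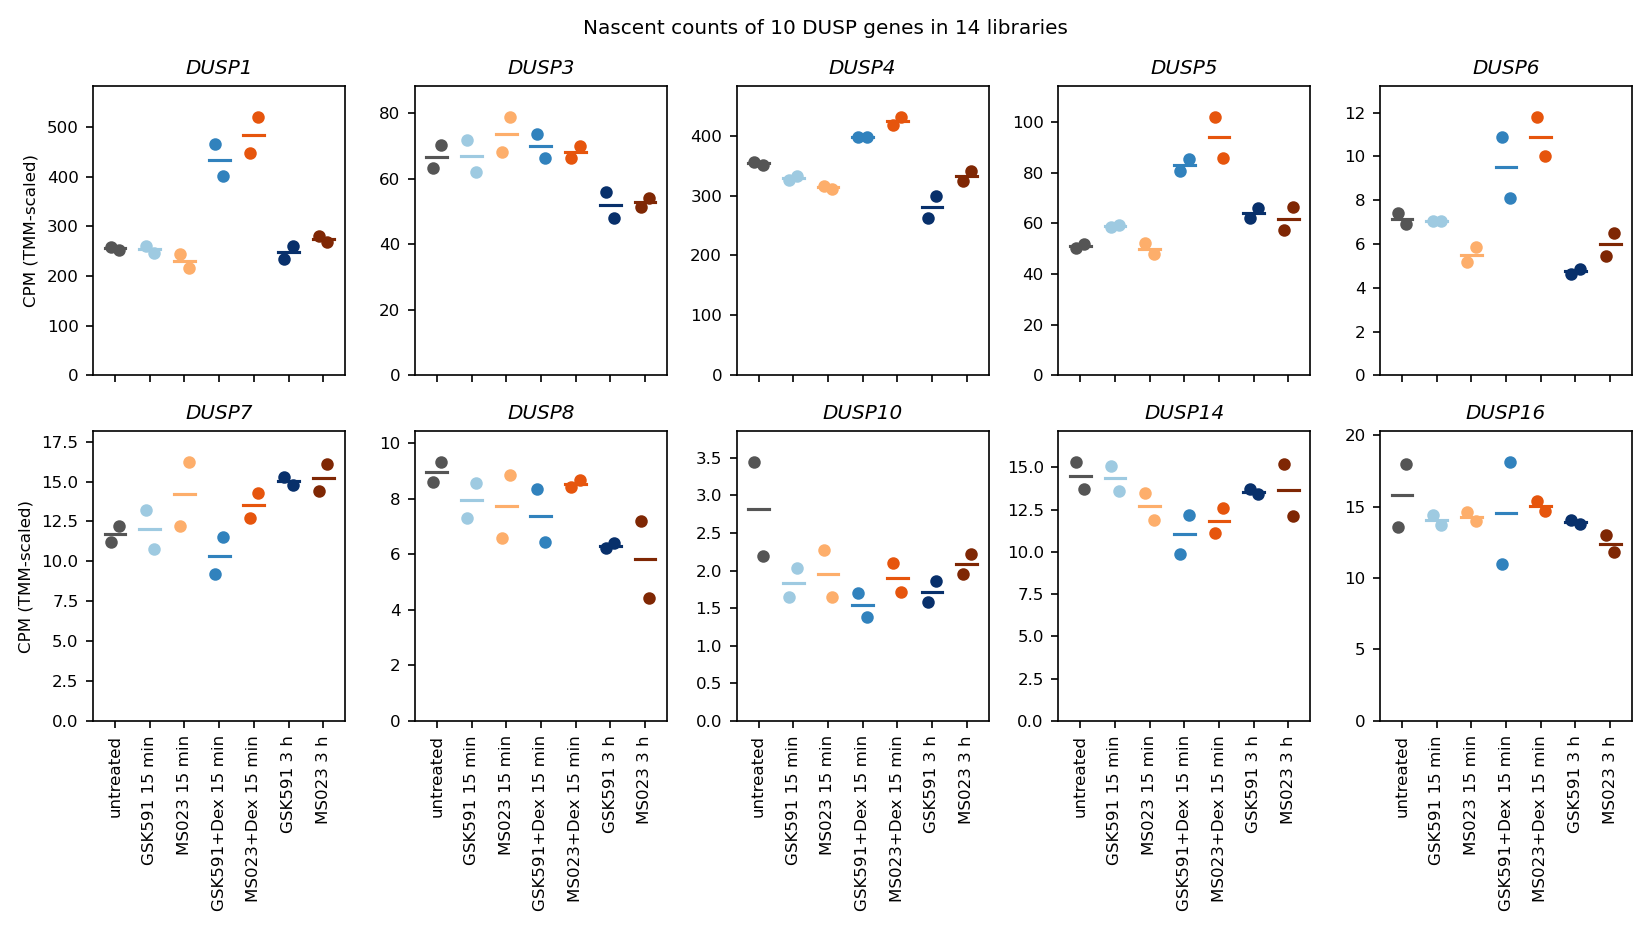
CPM of the 10 DUSP genes in each of the 14 libraries, 1 panel per gene with its own axis from 0, 1 point per library and the 7 groups along the horizontal axis. The Dex groups stand above all other groups for DUSP1 (401 to 520 CPM), DUSP4, DUSP5 and DUSP6, and the 3 h groups are the lowest for DUSP3 (47.9 to 56 CPM).

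Transcription of DUSP1 and DUSP5 rose when Dex was added to either inhibitor for 15 min. Beside GSK591, 2 of 10 members were called, both higher (DUSP1 and DUSP5), where 1.43% of all genes were called higher. DESeq2 called 3 beside GSK591, DUSP4 being the third. Beside MS023, 4 of 10 were called, all higher (DUSP1, DUSP4, DUSP5 and DUSP6), where 5.90% of all genes were called higher. No member was called lower in either comparison, where 2.27% and 3.07% of all genes were. As the members were chosen with earlier results of these data known, the shares are given for description only. The median log2 fold change of the 10 members was 0.05 beside GSK591 and 0.12 beside MS023, beside -0.00 and -0.02 over all genes. The calls were thus in a few members, of which DUSP1, DUSP4 and DUSP5 are nuclear and DUSP6 is cytoplasmic. Those nuclear members had at least 320 reads per library. The uncalled DUSP7, DUSP8, DUSP10, DUSP14 and DUSP16 had at most 164, and DUSP3, also uncalled, had 391 to 641. A link of the calls to location or to depth was not tested.

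DUSP1, the nuclear phosphatase of JNK, p38 and ERK, had 261 and 246 CPM with GSK591 alone and 465 and 401 CPM with GSK591 and Dex. With MS023 alone it had 244 and 216 CPM, and 448 and 520 CPM with MS023 and Dex. All 4 Dex libraries lay above all 10 others. The log2 fold change on adding Dex was 0.77 ± 0.11 beside GSK591 (1.71-fold, adjusted p = 7.1e-06) and 1.07 ± 0.11 beside MS023 (2.1-fold, adjusted p = 1.7e-09). Ordered by p among all genes tested, DUSP1 was number 35 in each of these comparisons.

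DUSP5, the nuclear ERK phosphatase, rose from 58.4 and 59.4 CPM with GSK591 to 80.8 and 85.5 CPM with GSK591 and Dex. Beside MS023 it rose from 52.1 and 48 CPM to 102 and 86 CPM. The 4 Dex libraries again lay above the other 10, which ended at 66.6 CPM. The log2 fold change was 0.50 ± 0.10 beside GSK591 (1.41-fold, adjusted p = 0.0024) and 0.90 ± 0.10 beside MS023 (1.87-fold, adjusted p = 3.5e-08). With library size alone as the scaling, the value beside GSK591 was 0.29 (adjusted p = 0.2), under a shift of the median of all genes by -0.21.

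DUSP6, the cytoplasmic ERK phosphatase, had 5.19 and 5.85 CPM with MS023 and 11.8 and 10 CPM with MS023 and Dex, a log2 fold change of 0.99 ± 0.21 (1.99-fold, adjusted p = 0.001). Beside GSK591 it had 7.07 and 7.03 CPM without Dex and 10.9 and 8.11 CPM with it, a log2 fold change of 0.44 ± 0.21 (interval 0.01 to 0.86) that was not called (adjusted p = 0.28). In both comparisons the Dex libraries lay above those without Dex. At 39 to 101 reads per library, DUSP6 is the thinnest of the called members, and without replicate 1 of the MS023 15 min group its value beside MS023 was 0.90 (adjusted p = 0.063).

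DUSP4, the other nuclear inducible enzyme, had the smallest of the called changes. It had 316 and 311 CPM with MS023 and 417 and 431 CPM with MS023 and Dex, a log2 fold change of 0.43 ± 0.10 (1.35-fold, adjusted p = 0.0034). Beside GSK591 it had 326 and 332 CPM without Dex and 397 in each library with it, a log2 fold change of 0.27 ± 0.10 (interval 0.06 to 0.48), which edgeR did not call (adjusted p = 0.14) and DESeq2 did (0.27, adjusted p = 0.037). The Dex libraries did not overlap those without Dex beside either inhibitor. With library size alone as the scaling the value beside MS023 was 0.25 (adjusted p = 0.25), under a shift of the median of all genes by -0.19, and without replicate 1 of the MS023 15 min group it was 0.45 (adjusted p = 0.05).

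The remaining 6 members were not called in either Dex comparison. The ERK-selective DUSP7 had log2 fold changes of -0.22 ± 0.18 and -0.05 ± 0.17 beside GSK591 and MS023. The stress kinase phosphatases DUSP8 (-0.10 ± 0.23 and 0.17 ± 0.22), DUSP10 (-0.25 ± 0.43 and -0.07 ± 0.39) and DUSP16 (0.04 ± 0.18 and 0.07 ± 0.17) stayed within their errors. DUSP3 had 0.06 ± 0.11 and -0.10 ± 0.11. DUSP14 had 15.1 and 13.6 CPM with GSK591 against 9.9 and 12.2 CPM with GSK591 and Dex, a log2 fold change of -0.38 ± 0.17 (adjusted p = 0.26), and here the Dex libraries lay below the others. With library size alone as the scaling it was called, at -0.58 (adjusted p = 0.049). For DUSP10, at 9 to 32 reads, the 95% interval beside GSK591 ran from -1.12 to 0.62.

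**Figure D3:**
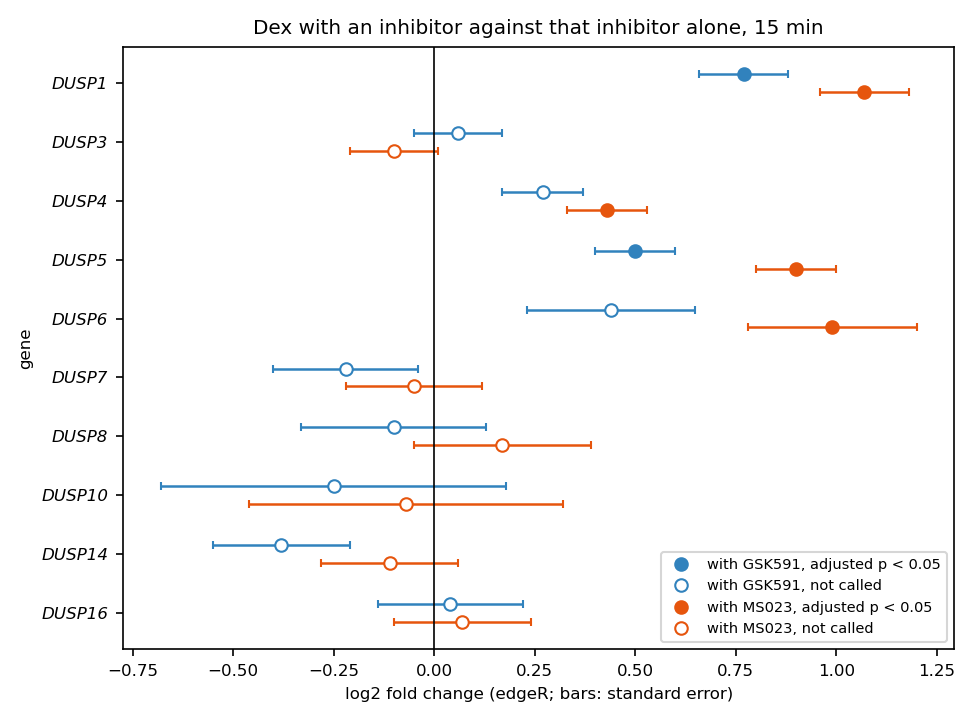
Log2 fold change of each DUSP gene on adding Dex for 15 min beside GSK591 and beside MS023, with bars of 1 SE and filled points for genes called at an adjusted p under 0.05. DUSP1 and DUSP5 are called beside both inhibitors (0.50 to 1.07), DUSP4 and DUSP6 beside MS023 by edgeR.

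Set against untreated cells instead of the matching inhibitor, DUSP1 and DUSP5 were called higher with GSK591 and Dex, where 3.21% of all genes were called higher. Of all calls there 54.8% were higher, against 23.6% with library size alone and 16.7% with nuclear library size alone as the scaling. DUSP1, DUSP5 and DUSP6 were called higher with MS023 and Dex, where 4.99% were, and 65.1% of calls were higher against 41.2% with nuclear library size. The log2 fold changes with GSK591 and Dex were 0.76 ± 0.11 for DUSP1 (adjusted p = 6.6e-06) and 0.71 ± 0.10 for DUSP5 (adjusted p = 1.2e-05). With MS023 and Dex they were 0.92 ± 0.11 for DUSP1 (adjusted p = 5.6e-08), 0.88 ± 0.10 for DUSP5 (adjusted p = 4.4e-08) and 0.61 ± 0.19 for DUSP6 (adjusted p = 0.043). DUSP4 was not called by edgeR in either, at 0.17 ± 0.10 and 0.26 ± 0.10 (adjusted p = 0.4 and 0.11). With MS023 and Dex it was called by DESeq2 and in the fit of only the groups compared (0.26 in each, adjusted p = 0.036 and 0.027). DUSP14 with GSK591 and Dex was called lower with nuclear library size alone (-0.55, adjusted p = 0.037) and not in the main test (-0.39, adjusted p = 0.19). These comparisons share the untreated libraries with each other and the Dex libraries with those above. DUSP6 with MS023 and Dex lost its call without any one library of the groups compared (0.49 to 0.72, adjusted p from 0.083 to 0.33) or without GSK591 3 h replicate 2 (0.60, adjusted p = 0.053), and with DESeq2, no count filter or either scaling by library size (0.52 to 0.60, adjusted p from 0.097 to 0.24). Both DUSP6 and DUSP4 had smaller values here than against MS023 alone, whose libraries for both lay below the untreated ones.

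The authors' deposited table gave DUSP1 a log2 fold change of 0.77 ± 0.14 (SE) with GSK591 and Dex and of 0.94 ± 0.14 with MS023 and Dex, with adjusted p of 1.3e-05 and 1.2e-08. In the authors' deposited table DUSP5 had 0.68 ± 0.17 and 0.86 ± 0.16 (adjusted p = 0.0057 and 4.5e-05), and DUSP6 with MS023 and Dex had 0.66 ± 0.37 (adjusted p = 0.61). No other member had an adjusted p under 0.05 in the authors' deposited tables of the 6 comparisons with untreated cells. For DUSP6, DUSP8 and DUSP10 the adjusted p is missing in some of these comparisons, so they were not assessed there. The deposited fold changes match ratios to untreated replicate 2 alone, as described at the end.

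Whether Dex moved a member differently beside GSK591 and beside MS023 was tested as the difference between the 2 Dex effects. None of the 10 was called, where 1.15% of all genes were, and DESeq2 also called none. DUSP5 had the only unadjusted p under 0.05 (adjusted p = 0.22), where 10.8% of all genes had one. Its Dex effect was lower beside GSK591 by -0.40 ± 0.15 on the log2 scale (interval -0.70 to -0.11). For DUSP1 the difference was -0.30 ± 0.15 (interval -0.60 to 0.01), for DUSP6 -0.56 ± 0.30 (interval -1.16 to 0.04) and for DUSP4 -0.16 ± 0.14 (interval -0.46 to 0.13). The point estimates of 9 of the 10 members were negative, with a median of -0.22 beside -0.01 over all genes. That edgeR called DUSP4 and DUSP6 beside MS023 and not beside GSK591, where DESeq2 called DUSP4 beside both, therefore does not show that Dex acted differently on them. The mitochondrial share was 39.8% and 44.5% of counts in the MS023 libraries and 49.6% and 52.9% in those with MS023 and Dex, against 48.6% and 46.9% with GSK591 and 48.2% and 58% with GSK591 and Dex. Its part in these differences was not tested.

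After 3 h of GSK591, 3 of 10 members were called, where 11.0% of all genes were called in either direction. DUSP3 and DUSP4 fell and DUSP5 rose, where 3.79% of all genes were called lower and 7.25% higher. DUSP3, a small atypical phosphatase that acts on ERK and JNK, had 63.1 and 70.2 CPM in untreated cells and 56 and 47.9 CPM at 3 h, a log2 fold change of -0.36 ± 0.11 (adjusted p = 0.022). DUSP4 had 356 and 351 CPM in untreated cells and 263 and 300 CPM at 3 h (-0.33 ± 0.10, adjusted p = 0.028). DUSP5 had 50.2 and 51.7 CPM in untreated cells and 62.1 and 66.2 CPM at 3 h (0.33 ± 0.10, adjusted p = 0.03). In each case the groups' libraries did not overlap. DUSP1, in contrast to its response to Dex, had 235 and 260 CPM at 3 h, and its libraries overlapped the untreated ones (-0.05 ± 0.11, adjusted p = 0.84).

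All 3 changes are small, a fold of 0.781 for DUSP3, 0.796 for DUSP4 and 1.26 for DUSP5, and each lost its call in some settings. DUSP3 was at -0.27 without untreated replicate 2 and at -0.26 without GSK591 3 h replicate 2 (adjusted p = 0.31 and 0.28). DUSP4 was at -0.23 without GSK591 3 h replicate 1 (adjusted p = 0.33), and at -0.31 and -0.33 without untreated replicate 1 and 2 (adjusted p = 0.17 and 0.16). DUSP5 lost its call without any one library of either group (0.27 to 0.38, adjusted p from 0.071 to 0.24). With library size alone as the scaling DUSP3 was at -0.23 and DUSP4 at -0.19 (adjusted p = 0.37 and 0.45), under a shift of the median of all genes by 0.12, and with DESeq2 DUSP3 was at -0.35 and DUSP5 at 0.34 (adjusted p = 0.072 and 0.068). DUSP5 was at 0.22 with nuclear library size alone and at 0.33 with no count filter (adjusted p = 0.18 and 0.059). In the authors' deposited table DUSP3 had -0.43 ± 0.17, DUSP4 -0.31 ± 0.11 and DUSP5 0.32 ± 0.17 (adjusted p = 0.12, 0.076 and 0.3).

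After 3 h of MS023, only DUSP3 was called among the 10. It had 51.5 and 54.2 CPM, below both untreated libraries, and a log2 fold change of -0.34 ± 0.11 (adjusted p = 0.044), where 2.23% of all genes were called lower. The call was lost without any one library of either group (-0.40 to -0.25, adjusted p from 0.089 to 0.45) and without either library of MS023 with Dex, which enter only the estimate of the spread and the scaling (-0.33, adjusted p = 0.069). DUSP5 had 57.2 and 66.6 CPM, above both untreated libraries (0.28 ± 0.11, adjusted p = 0.1). DUSP4 had 324 and 341 CPM (-0.09 ± 0.10, adjusted p = 0.7), and DUSP1 had 280 and 269 CPM (0.10 ± 0.11, adjusted p = 0.67).

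Among the members that were not called at 3 h, DUSP6 had 7.42 and 6.9 CPM in untreated cells and 4.64 and 4.88 CPM with GSK591 (-0.59 ± 0.22, adjusted p = 0.08). With nuclear library size alone as the scaling DUSP6 was called, at -0.70 (adjusted p = 0.032), under a shift of the median of all genes by -0.12. DUSP8 had 8.6 and 9.31 CPM in untreated cells, 6.23 and 6.39 CPM with GSK591 and 7.2 and 4.43 CPM with MS023, with log2 fold changes of -0.50 ± 0.21 and -0.59 ± 0.22 (adjusted p = 0.13 and 0.095). Without MS023 3 h replicate 1 the value with MS023 was -1.01 and was called (adjusted p = 0.034). For both genes the 3 h libraries lay below the untreated ones. DUSP7 had 11.2 and 12.2 CPM in untreated cells, and at 3 h 15.3 and 14.8 CPM with GSK591 and 14.4 and 16.1 CPM with MS023 (0.37 ± 0.16 and 0.38 ± 0.17, adjusted p = 0.15 and 0.18). Its 3 h libraries lay above the untreated ones. DUSP16 had -0.17 ± 0.17 and -0.34 ± 0.17, DUSP14 -0.10 ± 0.16 and -0.08 ± 0.16, and DUSP10 -0.71 ± 0.36 and -0.44 ± 0.35 with GSK591 and MS023. Of the 10 log2 fold changes, 8 were negative with GSK591 and 7 with MS023, with medians of -0.25 and -0.18 beside -0.01 over all genes in each. The 2 comparisons share the untreated libraries.

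**Figure D4:**
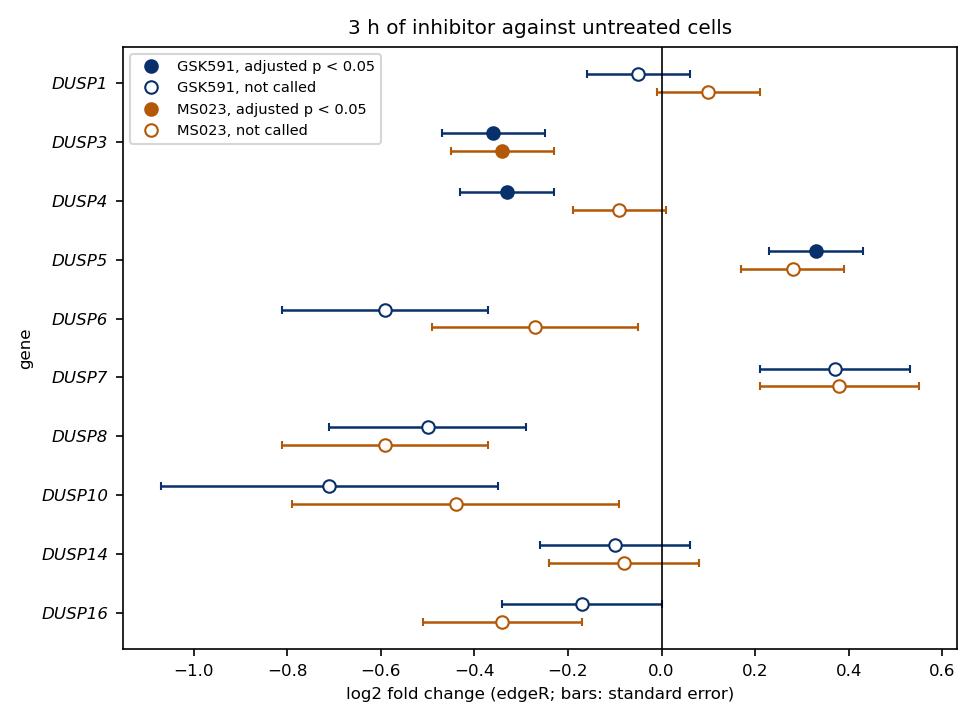
Log2 fold change of each DUSP gene after 3 h of GSK591 or of MS023 against untreated cells, with bars of 1 SE and filled points for genes called at an adjusted p under 0.05. DUSP3 is called lower with both inhibitors (-0.36 and -0.34), DUSP4 lower and DUSP5 higher with GSK591.

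Against 15 min of the same inhibitor, DUSP3 was again the only member called, lower with each. With GSK591 it went from 71.9 and 62 CPM to 56 and 47.9 CPM (-0.36 ± 0.11, adjusted p = 0.031), where 2.77% of all genes were called lower. With MS023 it went from 68.2 and 78.8 CPM to 51.5 and 54.2 CPM (-0.47 ± 0.11, a fold of 0.72, adjusted p = 0.0021), where 4.40% were called lower. In all 4 libraries taken at 3 h DUSP3 lay below all 10 libraries taken at 15 min, which began at 62 CPM. The 3 h libraries here are the ones compared with untreated cells above. With GSK591 the call was lost without GSK591 15 min replicate 1 or GSK591 3 h replicate 2 (-0.25 and -0.26, adjusted p = 0.36 each), and with either untreated library left out it was -0.36 (adjusted p = 0.053). With MS023 it was -0.37 without MS023 15 min replicate 2 (adjusted p = 0.072). From 15 min to 3 h of MS023, DUSP5 was at 0.30 (adjusted p = 0.06) and was called in 6 alternatives (0.31 to 0.42, adjusted p from 0.0073 to 0.042), among them nuclear library size alone, in which DUSP1 was also called (0.37, adjusted p = 0.02). DUSP6 had a log2 fold change of -0.57 ± 0.22 from 15 min to 3 h of GSK591 (adjusted p = 0.13) and of 0.11 ± 0.23 with MS023 (adjusted p = 0.82).

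The inhibitors were also set against each other at matched dose and time. No member was called at 15 min, where 1.09% of all genes were, or at 3 h, where 0% were, and DESeq2 called none of them either. At each time 1 member had an unadjusted p under 0.05, where 9.75% of all genes did at 15 min and 6.02% at 3 h. At 15 min this was DUSP5, higher with GSK591 by 0.23 ± 0.11 (interval 0.01 to 0.45, adjusted p = 0.46). At 3 h it was DUSP4, lower with GSK591 by -0.24 ± 0.10 (interval -0.45 to -0.03, adjusted p = 0.77). For DUSP1 the intervals ran from -0.08 to 0.36 at 15 min and from -0.37 to 0.07 at 3 h, and for DUSP3 from -0.34 to 0.08 and from -0.24 to 0.20.

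The levels of the members were also followed jointly over the libraries, as a description. Over all 14 libraries, DUSP4 and DUSP6 had the highest correlation of log2 CPM of any pair (Pearson's r = 0.93). Over the 10 libraries without Dex it was 0.85. DUSP1 was correlated with DUSP5 at 0.89, with DUSP4 at 0.87 and with DUSP6 at 0.85 over the 14 libraries, but at 0.45, 0.43 and 0.21 over the 10 without Dex. DUSP5 was correlated with DUSP4 at 0.68 and with DUSP6 at 0.71 over the 14 libraries, but at -0.35 and -0.30 over the 10 without Dex. The links of DUSP1 to the other 3, and of DUSP5 to DUSP4 and DUSP6, thus rested largely on the Dex libraries. That of DUSP4 with DUSP6 was also present without them. DUSP3 and DUSP5 had an r of 0.00 over the 14 libraries and of -0.78 over the 10 without Dex. The points share treatment groups, depth and scaling.

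**Figure D5:**
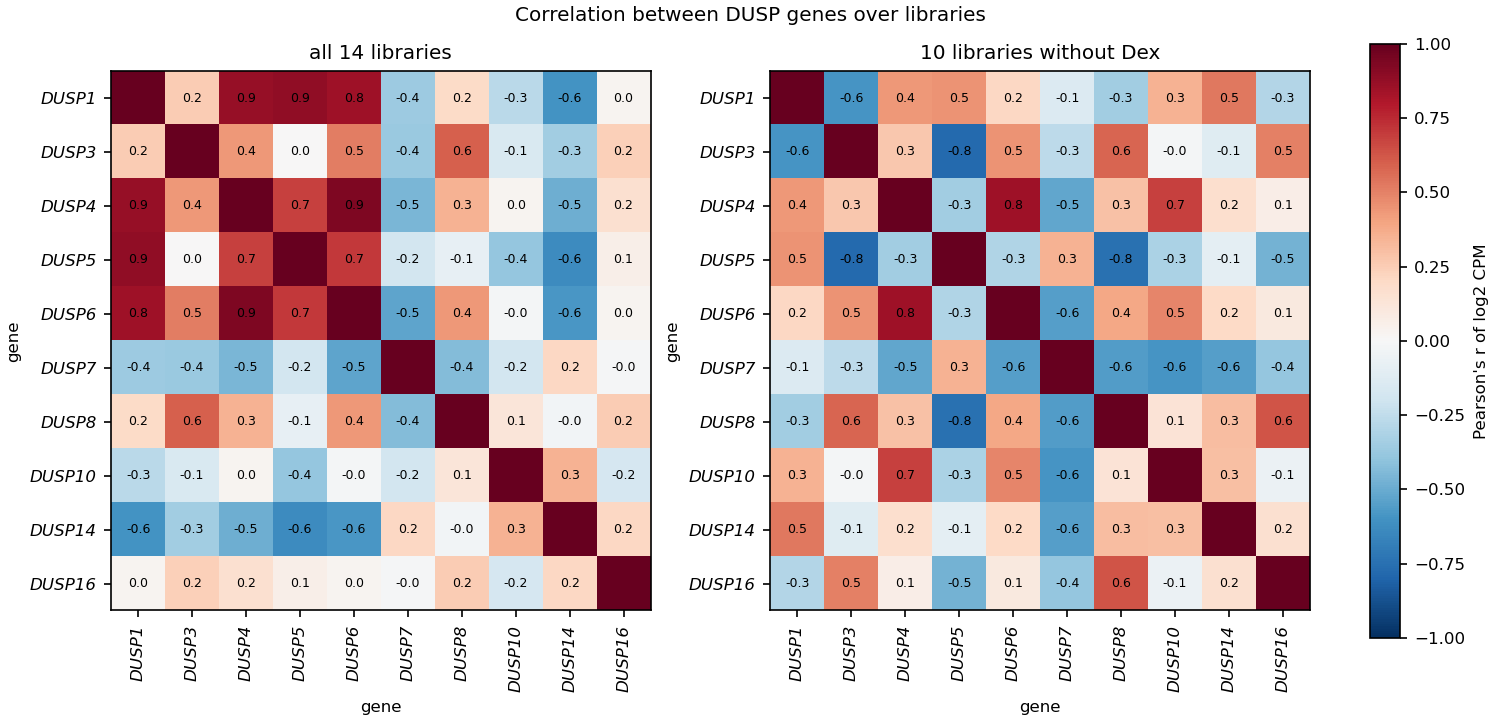
Pearson's r of log2 CPM between each pair of the 10 DUSP genes, over all 14 libraries and over the 10 without Dex, on a colour scale from -1 to 1. The block of DUSP1, DUSP4, DUSP5 and DUSP6 is high over all libraries (0.68 to 0.93), and of it DUSP4 with DUSP6 is high without Dex (0.85). Without Dex, DUSP5 is negative with DUSP4 (-0.35) and with DUSP6 (-0.30).

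Among the 17477 genes that averaged 2 CPM or more, those whose log2 CPM followed DUSP1 most closely over the 14 libraries were IRS2 (r = 0.98), an adaptor of the insulin receptor, ZFP36 (r = 0.98), which promotes decay of inflammatory mRNAs, and TIPARP (r = 0.97). Without the Dex libraries those values were 0.79, 0.68 and 0.55. DUSP4 was followed most closely by CFLAR (r = 0.97), an inhibitor of caspase 8 activation, LINC01348 (0.96) and PDE4D (0.96), a cAMP phosphodiesterase. For DUSP6 the genes were TRIB1 (0.95), RHOB (0.95) and SRSF10 (0.94). For DUSP5 they were RHOBTB1 (0.96), AC005972.3 (0.95) and DHX9 (0.95). Without Dex the values were 0.92, 0.90 and 0.88 for the genes of DUSP4. They were 0.83, 0.84 and 0.85 for those of DUSP6 and 0.85, 0.78 and 0.90 for those of DUSP5. DUSP3 was followed most closely by DUOX1 (0.97), ALG1L12P (0.97) and MGC16275 (0.94), at 0.98, 0.98 and 0.95 without Dex. These values order genes by likeness only.

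The genes around the phosphatases in the pathway were read from the same fit. PER1, TSC22D3 and FKBP5, used as a check of Dex, were called higher on adding Dex to either inhibitor, PER1 by 1.89 ± 0.13 beside GSK591 and 1.91 ± 0.12 beside MS023. Some feedback inhibitors that are not phosphatases also rose. ERRFI1, which inhibits EGFR, rose by 1.74 ± 0.11 beside GSK591 and by 1.45 ± 0.11 beside MS023 on the log2 scale (adjusted p = 5.5e-14 and 1.5e-12). Its mean level went from 32.8 to 110 CPM and from 36.1 to 98.6 CPM. SPRY2, a Sprouty inhibitor of receptor tyrosine kinase signalling to ERK, rose by 0.63 ± 0.14 beside GSK591 (adjusted p = 0.0052) and by 0.98 ± 0.14 beside MS023 (adjusted p = 4.0e-06). SPRY1 rose by 1.05 ± 0.18 beside MS023 (adjusted p = 9.6e-05). Of the 9 such genes, 2 rose and 0 fell beside GSK591, and 3 rose and 1, RASA1, fell beside MS023 (-0.42 ± 0.13, adjusted p = 0.033). Over all genes 1.43% were called higher and 2.27% lower beside GSK591, and 5.90% higher and 3.07% lower beside MS023. SPRY2 beside GSK591 lost its call with library size alone (0.43, adjusted p = 0.12) and without either GSK591 15 min library (0.62 and 0.64, adjusted p = 0.069 and 0.058), and RASA1 without any one library compared (-0.52 to -0.31, adjusted p from 0.062 to 0.32). Among the epithelial markers EPCAM was called beside MS023, at 1.16 ± 0.35 (adjusted p = 0.029), and its part in these results was not tested.

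The kinase genes were read in the same way, beside the same shares of all genes called higher and lower. Of 16 genes of the ERK module, SHC1, an adaptor between receptors and RAS, was called beside GSK591 (0.42 ± 0.10, adjusted p = 0.011) and none beside MS023. Of 16 genes of the JNK and p38 modules, 4 rose and 1 fell beside MS023. They were led by MAP3K1, a kinase upstream of JNK (1.63 ± 0.20, adjusted p = 1.6e-07), and MAPK14, which encodes p38α (1.10 ± 0.16, adjusted p = 4.5e-06). Beside GSK591, MAP3K11 alone was called in those modules, lower at -0.42 ± 0.10 (adjusted p = 0.014), and it was also lower beside MS023 (-0.61 ± 0.10, adjusted p = 3.9e-05). Of 9 effector kinases tested, MAPKAPK2 (1.05 ± 0.17) and MKNK2 (0.90 ± 0.11) rose beside MS023 and none was called beside GSK591. The other dual-specificity phosphatases, 14 of which were tested, gave 1 call, SSH3 beside GSK591 (-0.46 ± 0.11, adjusted p = 0.0068). SHC1, MAP3K11 and SSH3 beside GSK591 lost their calls without GSK591 15 min replicate 1 (0.35, -0.35 and -0.41, adjusted p = 0.2, 0.21 and 0.12) or GSK591 with Dex replicate 2 (0.42, -0.38 and -0.39, adjusted p = 0.066, 0.14 and 0.14). The medians of these lists lay between -0.04 and 0.18, beside -0.00 and -0.02 over all genes.

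At 3 h several kinase genes rose. Over all genes 7.25% were called higher and 3.79% lower with GSK591 and 5.40% higher and 2.23% lower with MS023. With GSK591, 4 of 16 ERK module genes rose, led by SOS2 (1.15 ± 0.18, adjusted p = 1.5e-05) and SOS1 (0.61 ± 0.15, adjusted p = 0.006), the exchange factors that load RAS. In the JNK and p38 modules 3 of 16 rose, with MAP3K1 at 2.04 ± 0.19 (adjusted p = 3.0e-10). MKNK2 (1.31 ± 0.10) and MAPKAPK2 (1.29 ± 0.17) were the 2 effector kinases called. SPRY2 was the 1 feedback inhibitor called, and it fell (-0.43 ± 0.14, adjusted p = 0.045). Without untreated replicate 2 SPRY2 was at -0.25 (adjusted p = 0.53). With MS023, 1 of 16 ERK module genes, 4 of 16 in the JNK and p38 modules and 2 of 9 effector kinases rose. MAP3K1 (1.79 ± 0.20), SOS2 (0.96 ± 0.19), MKNK2 (1.30 ± 0.10) and MAPKAPK2 (1.09 ± 0.17) were among them, and no feedback inhibitor was called. Of the other dual-specificity phosphatases, 3 of 14 rose and 1 fell with GSK591 and 1 rose with MS023, beside the same shares of all genes. DUSP15 rose with GSK591 (0.94 ± 0.24, adjusted p = 0.007) and with MS023 (0.89 ± 0.25, adjusted p = 0.017), and STYX, a catalytically inactive member, rose with GSK591 (0.61 ± 0.14, adjusted p = 0.0022). DUSP15 was at 0.41 with MS023 without MS023 3 h replicate 1 (adjusted p = 0.59). The medians of these lists lay between -0.03 and 0.21, beside -0.01 over all genes. PER1 and TSC22D3, which were higher with Dex, fell at 3 h without it. With GSK591 they were at -0.93 ± 0.15 and -0.71 ± 0.13 (adjusted p = 2.6e-05 and 2.6e-04), and with MS023 at -0.73 ± 0.15 and -0.53 ± 0.13 (adjusted p = 9.9e-04 and 0.0074). Exons of MAP3K1, SHC1, ERRFI1, RASA1, PER1, TSC22D3 and DUSP15 overlap those of other genes, so their counts are uncertain.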

How the data were processed

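PRO-seq was performed on A549 cells in 14 libraries of 7 groups. The deposited table gives whole-number read counts per gene, made by the authors with featureCounts 2.0.1 (Subread) on hg38, per the submitters' processing notes. The aligner, counting feature and strand setting are not given in the sources used here. The 6 deposited tables of the authors' comparisons, made with DESeq2 per the submitters' processing notes, hold per gene a mean signal, a log2 fold change with SE, a test score, and p-values before and after adjustment, per the file headers.

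Counts were tested as deposited with edgeR 4.0.16 (R 4.3.3, limma 3.58.1). TMM scaling and edgeR's expression filter left 21910 of 58780 genes. All 14 libraries entered 1 fit with 1 coefficient per group and 7 residual degrees of freedom. The biological coefficient of variation was 0.073. P-values were adjusted by Benjamini-Hochberg within each of 13 comparisons. Every gene ID matched GENCODE 29. On data simulated for 3 h of GSK591 with changes of 1 on the log2 scale, edgeR called 66% of 197 changed genes and 10 of 21230 unchanged ones, and DESeq2 1.42.0 called 48% of 200 and 2 of 21710. The members called at 3 h had smaller changes, which were not simulated, so these rates do not describe them.

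The 10 members and the pathway lists were chosen with earlier results of these data known. All members are described in every group. From each list, up to 2 called genes higher and 2 lower per comparison, those with the largest change, are named in full or counted. Likeness was the highest Pearson's r of log2 CPM (prior count 2) over the libraries. Alternatives were DESeq2, median-of-ratios (RLE) scaling, library size with and without mitochondrial genes, no count filter, only the groups compared, the replicate number as a block, and leaving out each library.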

Additional observations from a re-analysis of the deposited data

Results flagged for a closer look

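By edgeR's test of the difference, the Dex effect differed between the inhibitors for 3 kinase genes of the MAP kinase pathway. It did so for none of the DUSP genes. The 3 were 2 of 16 genes tested in the JNK and p38 modules and 1 of 9 effector kinases. Over all genes 1.15% were called, and 234 of those 252 genes also had a Dex effect lower beside GSK591. MAP3K1 had a Dex effect lower beside GSK591 by -1.20 ± 0.28 on the log2 scale (adjusted p = 0.02), with mean levels of 11.4 and 15.4 CPM without and with Dex beside GSK591 and of 6.34 and 19 CPM beside MS023. For MAPK14 the difference was -0.98 ± 0.22 (adjusted p = 0.015), from 18.7 to 20.3 CPM beside GSK591 and from 10.8 to 22.7 CPM beside MS023. For MKNK2 it was -0.78 ± 0.16 (adjusted p = 0.0055), from 35 to 37.9 CPM and from 25.4 to 47.4 CPM. All 3 were also called higher with GSK591 than with MS023 before Dex, by 0.89 ± 0.22, 0.82 ± 0.17 and 0.46 ± 0.12. In that comparison 1.09% of all genes were called, 222 of those 239 higher with GSK591. Without MS023 15 min replicate 1 the differences were -0.85, -0.70 and -0.80 (adjusted p = 0.44, 0.39 and 0.082), and without GSK591 15 min replicate 1 they were -0.92, -0.97 and -0.72 (adjusted p = 0.31, 0.12 and 0.092). Without MS023 with Dex replicate 2 they were -0.96, -0.97 and -0.72 (adjusted p = 0.22, 0.088 and 0.063). Without GSK591 with Dex replicate 2, MAP3K1 was at -1.20 and MAPK14 at -0.87 (adjusted p = 0.054 and 0.082). With library size alone as the scaling they were -1.21, -0.99 and -0.80 (adjusted p = 0.058, 0.087 and 0.07), and with DESeq2 MAP3K1 was at -1.18 and MAPK14 at -0.97 (adjusted p = 0.099 and 0.093). In the fit of only the groups compared MAP3K1 was at -1.19 (adjusted p = 0.055).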

How the results depend on the processing

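The 17 called results of single members kept their direction in every alternative run. They kept the call in 17 of 17 with RLE scaling, with only the groups compared and with the replicate block, 15 with nuclear library size, 13 with no count filter, 12 with DESeq2 and 10 with library size alone. DUSP1 beside both inhibitors, and DUSP5 beside MS023, kept theirs in every alternative. For GSK591 at 3 h against untreated cells, 3 members were called in the main test, 1 with DESeq2, 1 with library size alone, and 0 to 3 when each library was left out. For MS023 at 3 h against untreated cells, 1 was called, 0 with DESeq2, library size alone or no count filter, and 0 to 1 when each library was left out. For 3 h against 15 min of GSK591 the count was 1, 0 with the same 3 settings, and 0 to 1 when each library was left out. For 3 h against 15 min of MS023 it was 1, 3 with nuclear library size, and 0 to 2 when each library was left out. For Dex added to MS023 it was 4, and 2 to 4 when each library was left out, with 2 without MS023 15 min replicate 1. A lone library left in a group is taken to vary like the others. The cause was not tested.

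Little sign of pairing by replicate number was seen: the correlation of deviations between same-numbered libraries ran from -0.08 to 0.15 over 21 pairs of groups (median 0.01, 2 over 0.1). A correlation over many genes cannot exclude a pairing that touches few of them. Under the replicate block no member call changed, with 2 members called for Dex added to GSK591, 4 for Dex added to MS023, 3 for GSK591 and 1 for MS023 at 3 h.

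Over all genes, DESeq2 called 410 with Dex added to GSK591 against 811 and 1020 with Dex added to MS023 against 1966. It called 1266 against 2419 at 3 h of GSK591 and 917 against 1672 at 3 h of MS023. With 15 min of GSK591 and of MS023 it called 18 against 67 and 31 against 40, where nuclear library size gave 25 and 196, no count filter 126 and 101, only the groups compared 187 and 176, and leaving out each library 4 to 104 and 2 to 88. DESeq2 also called, with either inhibitor and Dex, 627 against 1282 and 832 against 1679, for the difference of Dex effects 70 against 252, for 3 h against 15 min 584 against 1405 and 1426 against 2640, and between inhibitors at 15 min 76 against 239. Library size alone called 1472 with Dex added to GSK591, 69 for the difference, 978 with MS023 and Dex, 1002 at 3 h of MS023, 713 for 3 h against 15 min of GSK591 and 29 between inhibitors at 15 min. It moved the share of higher calls from 38.6% to 6.73% with Dex added to GSK591, from 65.8% to 28.9% with Dex added to MS023, and from 65.6% to 90.9% at 3 h of GSK591, where nuclear library size gave 24.6%, 81.1% and 37%. The share of higher calls went from 54.8% to 23.6% with library size alone and 16.7% with nuclear library size with GSK591 and Dex, and from 65.1% to 41.2% with nuclear library size with MS023 and Dex. At 15 min it went from 97% to 80% with nuclear library size for GSK591, and from 45% to 89.3% with library size alone and 6.63% with nuclear library size for MS023. In the same order of scalings, it went from 70.8% to 84.9% and 60.5% for MS023 at 3 h and from 63.5% to 36% and 85.6% for 3 h against 15 min of MS023. For 3 h against 15 min it went from 56.9% to 81.8% with library size alone for GSK591. Nuclear library size called 2044 against 1282 with GSK591 and Dex. Fitting only the groups compared gave 2620 calls against 1679 with MS023 and Dex, 801 against 1282 with GSK591 and Dex, 385 calls with Dex added to GSK591 and 135 for the difference. Of 85 results of named pathway genes none changed direction, and 63 kept their call with DESeq2 and 59 with library size alone. At 9 to 32 reads per library, depth limits DUSP10.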

Other observations

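The fold changes in the authors' deposited tables were compared with ratios computed from the count table. Over 8857 genes with a mean signal of at least 100, the deposited log2 fold changes lay within 0.01 of the ratio of both treated libraries to untreated replicate 2 alone for 92.9% to 100.0% of genes, depending on the comparison. With both untreated libraries the share was 10.2% to 10.3%. For DUSP3 the untreated libraries had 63.1 and 70.2 CPM, and the value in the authors' deposited table for 3 h of GSK591 was -0.43, beside -0.36 in the fit on all libraries. For DUSP10, with 3.44 and 2.19 CPM in untreated cells, the value in the authors' deposited table for the same comparison was -0.34, beside -0.71.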
